A study of Mus musculus with 6 samples.

Results

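Chemokines are small secreted proteins that steer leukocytes and vessel-forming cells along gradients, and they were examined here as 9 ligand genes (Ccl2, Ccl7, Ccl11, Cxcl1, Cxcl9, Cxcl10, Cxcl12, Cx3cl1 and Cxcl16) together with Cxcr7, the older symbol of Ackr3, a receptor that removes Cxcl12 from the surroundings of the cell. These 10 genes were picked by symbol out of the 22026 in the deposited tables, and all 10 were present. They were named with their values at both ages already known, so every comparison between ages of these 10 genes is given as a description of them and not as a test. RNA was sequenced from choroid endothelial cells (ECs) of 129/B6 mice at post natal day 5 (P5, when the retina is still differentiating) and post natal day 30 (P30, visual maturity), with 3 isolations per age and 7 animals pooled in each. The choroid is the fenestrated vessel bed behind the retinal pigment epithelium (RPE), and its ECs were sorted after intravital staining for VE-Cadherin, with a smaller antibody dose in the P5 animals. Male and female animals were used at P30 and no experimental treatment was given at either age. For the antibody injection, P5 animals were anaesthetized by hypothermia, and the kind of anaesthesia used at P30 is not described. Any effect of this handling on the values was not tested. The comparison asks how the chemokine repertoire of choroid ECs differs before and after the eye reaches functional maturity.

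Chemokines are grouped by the spacing of their conserved cysteines into CC, CXC and CX3C families, and they act through G protein-coupled receptors on the responding cell. ECs hold chemokines on heparan sulfate at their surface, where rolling leukocytes meet them, and 2 ligands of the set, Cx3cl1 and Cxcl16, are made as membrane proteins that proteases can release. Atypical receptors such as Cxcr7 bind chemokines without the usual G protein signal and carry them into the cell for degradation. Several of the ligands are inducible: NF-κB drives Cxcl1 and Ccl2 in inflamed vessels, and interferons drive Cxcl9 and Cxcl10.

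The values are FPKM (read fragments scaled by transcript length and to the upper quartile of each library), so levels can be compared between genes as well as between isolations. Differences between ages were fitted with limma on log2(FPKM + 1), a scale that understates the change of genes with low FPKM, over the 12481 genes whose FPKM averaged 5 or more at P5 or at P30. All 10 genes were among them, Ccl11 and Cxcl9 only through their P30 means. A difference was called when its Benjamini-Hochberg adjusted p was under 0.01 and its mean FPKM + 1 differed at least 2-fold. The log2 fold changes below are the limma coefficients, P30 minus P5, with their standard errors (SE). The summed FPKM was between 1432700 and 1734640 in the 6 isolations, and the depth in reads is unknown. Markers of other cells differed between the P30 isolations: pericyte and fibroblast genes were highest in replicate 2, and RPE and macrophage genes in replicate 1. Values without an isolation are given where it decides a result.

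All 10 genes had a higher mean FPKM at P30 than at P5. Of the 10, 5 passed both limits and were higher at P30 (Ccl11, Cx3cl1, Cxcl1, Cxcl12 and Cxcr7), 0 were higher at P5, and 5 did not pass. Over all genes tested, 11.7% were called, with 5.89% higher at P30 and 5.82% higher at P5, but since the genes were picked with this contrast known, nothing is read from their share. In 8 of the 10 every P30 isolation lay above every P5 isolation, which was so for 22.0% of all genes tested, while 33.0% lay the other way round. Ccl2 and Ccl7 overlapped between the ages. The median over the 10 genes was 1.84 on the log2 scale, against -0.10 for all genes tested. Single genes ran from 0.81 for Ccl7 to 5.74 for Ccl11. With each isolation rescaled to the same summed FPKM, 37.1% of the calls over all genes were higher at P30, against 50.3% without rescaling, and all 10 genes kept a positive log2 fold change.

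**Figure D1:**
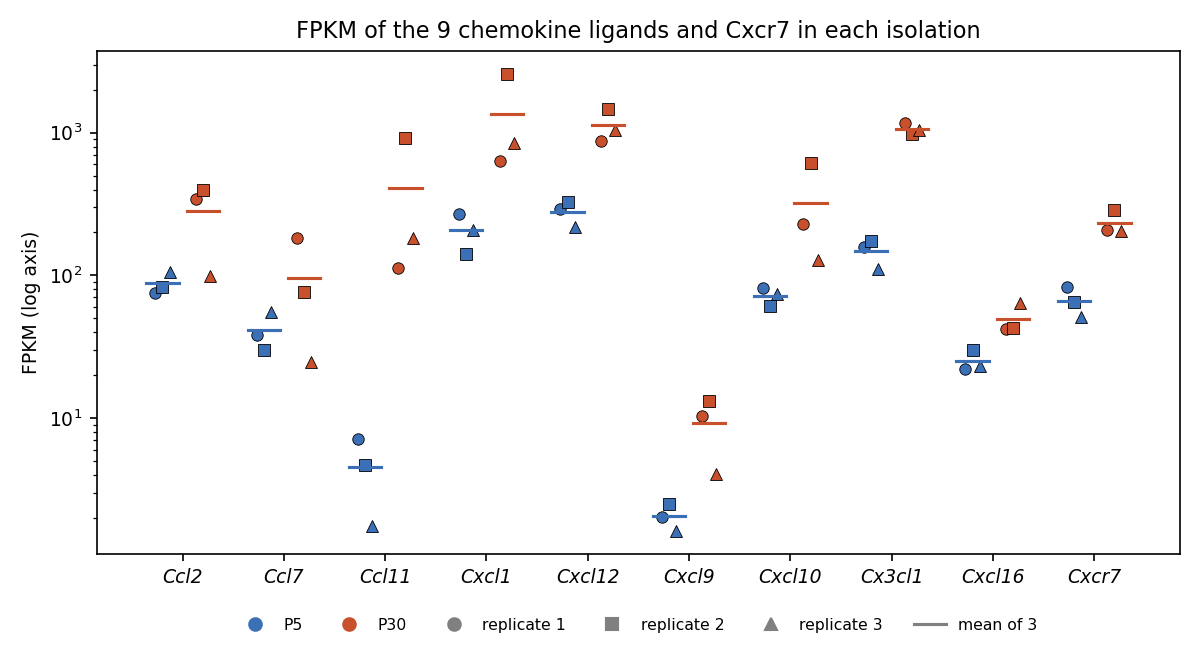
FPKM (log axis) of each ligand gene and of Cxcr7 in the 3 P5 isolations (blue) and the 3 P30 isolations (red), with symbols for the replicate number and a bar at the mean of 3. The P30 points lie above all P5 points in 8 of the 10 genes, and Cx3cl1 is the gene whose P30 points lie closest together.

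At P5 the order by mean FPKM was Cxcl12 (279 ± 56.9, SD, n = 3), Cxcl1 (207 ± 64.3), Cx3cl1 (147 ± 32.6), Ccl2 (88.0 ± 15.9), Cxcl10 (72.0 ± 10.02), Cxcr7 (66.2 ± 15.6), Ccl7 (41.1 ± 12.8), Cxcl16 (25.0 ± 4.19), Ccl11 (4.52 ± 2.68) and Cxcl9 (2.05 ± 0.441). Neighbours in this order overlapped in range, except that Cx3cl1 stood apart from Ccl2, Ccl7 from Cxcl16, and Cxcl16 from Ccl11. At P30 the order was Cxcl1 (1359 ± 1078), Cxcl12 (1129 ± 304), Cx3cl1 (1064 ± 100.2), Ccl11 (407 ± 450), Cxcl10 (324 ± 257), Ccl2 (281 ± 159), Cxcr7 (233 ± 45.4), Ccl7 (95.2 ± 81.4), Cxcl16 (49.8 ± 12.7) and Cxcl9 (9.19 ± 4.67). The same 3 ligands therefore had the highest FPKM of the set at both ages, and neighbours among them overlapped in range at both, while Cxcl12 and Cx3cl1 stood apart at P5. At P30, neighbours stood apart between Cx3cl1 and Ccl11, between Cxcr7 and Ccl7, and between Cxcl16 and Cxcl9. Ccl11 went from the ninth place to the fourth, but without P30 replicate 2 its P30 mean was 148 FPKM, below Ccl2 (222), Cxcr7 (207) and Cxcl10 (178), which is the seventh place. Among the genes tested, the mean of Ccl11 was above 5.62% of them at P5 and above 94.6% at P30.

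Set against all 38 chemokine ligand genes in the tables, the 9 ligands took up a different part of the total at the 2 ages. They summed to 945, 856 and 798 FPKM in the 3 P5 isolations, in replicate order, and to 3600, 7108 and 3445 in those of P30. As a share of the FPKM of all ligands, this was 52.9%, 51.9% and 46.1% at P5 and 77.5%, 96.8% and 93.7% at P30. The most abundant ligand in every P5 isolation was Pf4 (platelet factor 4), which is not in the set, with a mean of 443 ± 31.6 FPKM. At P30 the leading ligand was Cx3cl1 in replicate 1, Cxcl1 in replicate 2 and Cxcl12 in replicate 3.

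Ccl2, Ccl7 and Ccl11 are CC chemokines whose genes lie side by side on chromosome 11 of mm9, within 27.4 kb (81849073 to 81876457). Ccl11, eotaxin, attracts eosinophils through Ccr3. It was listed at 7.11, 4.70 and 1.76 FPKM at P5, always in the order of replicates 1 to 3 here and below, and at 112, 925 and 184 at P30. Every P30 isolation was at least 15.8 times the highest P5 isolation, and P30 replicate 2 was 8.24 times P30 replicate 1. Its log2 fold change was 5.74 (SE 0.76). Without P30 replicate 2 it was 4.84 and without P30 replicate 1 it was 6.36, and the gene no longer passed the limits without P5 replicate 3 (5.30, SE 0.85).

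Ccl2, the main monocyte attractant, had 74.9, 83.5 and 106 FPKM at P5 and 345, 399 and 99.7 at P30. P30 replicate 3 lay inside the P5 range, while the other two P30 isolations were above it. The log2 fold change was 1.45 (SE 0.48) and did not pass the limits, but it was 2.08 (SE 0.17) and passed them without P30 replicate 3, and 1.08 (SE 0.49) without P30 replicate 2. Ccl7, which also attracts monocytes, had 38.2, 30.0 and 55.2 FPKM at P5 and 184, 76.5 and 24.7 at P30. P30 replicate 3 was lower than every P5 isolation, and the log2 fold change was 0.81 (SE 0.64), with 0.13 without P30 replicate 1 and 1.55 (SE 0.41) without P30 replicate 3, neither past the limits. The neighbours of Ccl11 on its other side, which are not in the set, are Ccl12 and Ccl8. Ccl12 had 86.2, 56.7 and 88.0 FPKM at P5 and 143, 9.44 and 18.1 at P30, and the ages overlapped. Ccl8 reached at most 22.8 FPKM, in P30 replicate 1, and was listed at 0 in P5 replicates 2 and 3 and P30 replicate 2. Genes that adjoin Ccl11 thus differed from it in level and in the order of the P30 isolations.

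Cxcl1 and Cxcl12 are CXC chemokines. Cxcl1, a neutrophil attractant that acts through Cxcr2, had 271, 142 and 209 FPKM at P5 and 632, 2598 and 846 at P30. The ages did not overlap, and P30 replicate 2 was 4.11 times P30 replicate 1. On the log2 scale it rose by 2.47 (SE 0.50). The value was 1.86 (SE 0.28) without P30 replicate 2, still past the limits. The gene failed the limits without each of the P5 isolations (2.69, 2.22 and 2.50 without P5 replicates 1, 2 and 3) and without P30 replicate 3 (2.67), where the SE was between 0.56 and 0.62.

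Cxcl12, which retains blood-forming cells and guides vessel growth through Cxcr4, had 292, 329 and 217 FPKM at P5 and 873, 1465 and 1049 at P30. Its lowest P30 isolation was 2.65 times its highest P5 isolation. The rise was 1.998 on the log2 scale (SE 0.22), and it stayed past the limits in all 14 alternatives, between 1.79 and 2.17.

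Cxcl9 and Cxcl10 lie within 27.6 kb on chromosome 5 and both attract activated T cells through Cxcr3. Cxcl10 had 81.1, 61.3 and 73.5 FPKM at P5 and 229, 614 and 128 at P30. All P30 isolations were above the P5 isolations, and P30 replicate 2 was 4.79 times P30 replicate 3. Its log2 fold change of 1.86 (SE 0.50) did not pass the limits. Cxcl9 was the ligand of lowest FPKM in the set, with 2.02, 2.50 and 1.62 at P5 and 10.3, 13.2 and 4.07 at P30. It entered the fit through its P30 mean, and its log2 fold change of 1.63 (SE 0.48) did not pass the limits. Without P30 replicate 3 both genes passed, at 2.37 (SE 0.39) for Cxcl10 and 2.07 (SE 0.36) for Cxcl9. Without P30 replicate 2 neither passed, at 1.25 (SE 0.26) for Cxcl10 and 1.32 (SE 0.52) for Cxcl9. Cxcl10 overlaps Art3 on the opposite strand. Art3 was listed at 28.6, 19.8 and 20.0 FPKM at P5 and at 90.5, 139.6 and 83.4 at P30, and whether reads were counted by strand is not given in the sources used here. The same holds for Ccl2, which overlaps Gm17268.

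RefSeq promoter sequences (taken from GRCm38.p6) were matched for 6 of the 10 genes, all but Ccl2, Ccl7, Ccl11 and Cxcl16, and each 250-base window before the start site was found exactly 1 time on its chromosome in mm9. They are shown because the inducible ligands Cxcl1, Cxcl9 and Cxcl10 are textbook NF-κB and interferon targets and can be set against Cxcl12. Bases -220 to -21 from the start are given 5′ to 3′ on the gene's strand, with capitals at matches to the κB motif, the interferon-stimulated response element (ISRE, a pair of GAAA half-sites with 2 bases between) or the AP-1 motif (TGANTCA).
Cxcl1 (chr5:91320051-91320250, plus strand): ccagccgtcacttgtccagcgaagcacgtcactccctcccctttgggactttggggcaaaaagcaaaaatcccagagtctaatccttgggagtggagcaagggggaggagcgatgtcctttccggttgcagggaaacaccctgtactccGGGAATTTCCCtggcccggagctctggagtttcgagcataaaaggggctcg
Cxcl10 (chr5:92777936-92778135, minus strand): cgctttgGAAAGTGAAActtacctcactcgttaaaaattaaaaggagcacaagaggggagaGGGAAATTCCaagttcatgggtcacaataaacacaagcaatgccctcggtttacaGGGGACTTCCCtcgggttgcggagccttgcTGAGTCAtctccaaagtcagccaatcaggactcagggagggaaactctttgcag
Cxcl9 (chr5:92757126-92757325, minus strand): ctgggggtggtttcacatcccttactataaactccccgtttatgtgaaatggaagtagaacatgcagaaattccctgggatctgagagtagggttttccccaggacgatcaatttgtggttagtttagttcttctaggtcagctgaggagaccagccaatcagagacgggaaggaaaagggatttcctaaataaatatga
Cxcl12 (chr6:117118333-117118532, plus strand): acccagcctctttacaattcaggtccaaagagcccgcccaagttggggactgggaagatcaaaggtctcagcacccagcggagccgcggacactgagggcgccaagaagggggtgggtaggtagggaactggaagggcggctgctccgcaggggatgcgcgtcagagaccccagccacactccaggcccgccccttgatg

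Over the whole 250 bases, searched on both strands, the κB motif matched in Cxcl1 (from -71 to -61, where matches on the 2 strands overlap) and at 2 places in Cxcl10 (-159 to -150 and -104 to -94). The windows of Cxcl9, Cxcl12, Cx3cl1 and Cxcr7 held no match to it. Of the 32536 different windows of the same length in the table, 7.28% held this motif. The ISRE, found in 2.98% of windows, matched in Cxcl10 (-213 to -204) and in no other of the 6. The AP-1 motif, in 6.73% of windows, also matched in Cxcl10 (-74 to -68). A match describes these letters in this window and does not show binding. The window of Cx3cl1 lies for 171 bases inside the gene as GENCODE annotates it in mm9, so its start differs between the annotations.

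**Figure D2:**
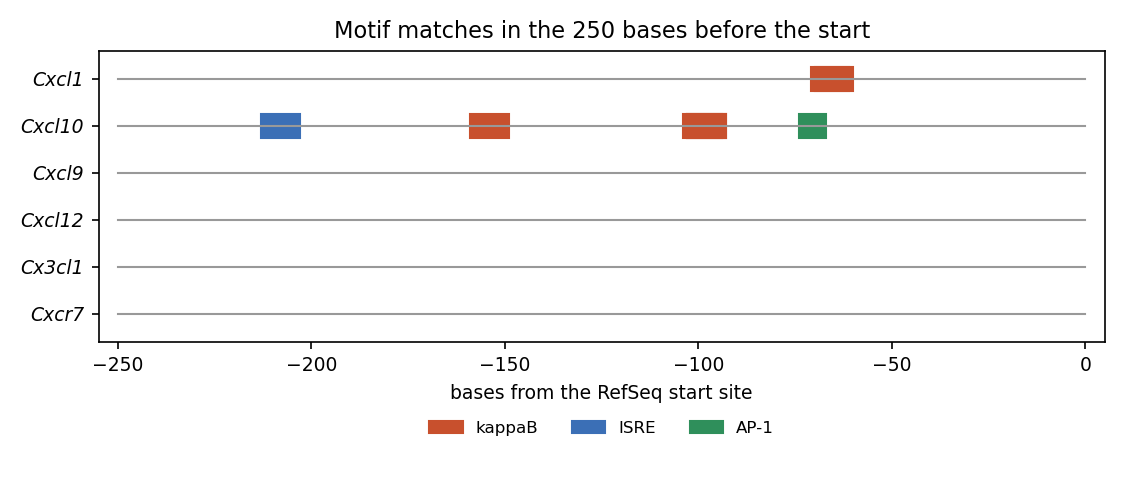
Matches to the κB motif (red), the ISRE (blue) and the AP-1 motif (green) in the 250 bases before the RefSeq start site of the 6 genes with a promoter sequence, with distance from the start in bases on the x axis. Matches stand in Cxcl1 and Cxcl10, and the other 4 windows hold none.

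Cx3cl1 and Cxcl16 are the ligands made as membrane proteins. Cx3cl1, fractalkine, tethers monocytes and microglia that carry Cx3cr1, and it lies on chromosome 8 (97295909 to 97306323 of mm9). Its FPKM was 157, 174 and 111 at P5 and 1173, 975 and 1045 at P30. The lowest P30 isolation was 5.61 times the highest P5 isolation, and the P30 isolations differed by at most 1.203 times. Its log2 fold change was 2.87 (SE 0.17), between 2.68 and 3.00 over the 14 alternatives, all past the limits. Cxcl16, which attracts T and NKT cells through Cxcr6, had 21.9, 29.7 and 23.3 FPKM at P5 and 42.4, 42.5 and 64.5 at P30. The ages did not overlap, but the log2 fold change of 0.95 (SE 0.21) did not pass the limits in any alternative. Cxcl16 overlaps Zmynd15, which had at most 9.83 FPKM, on the opposite strand.

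Cxcr7, on chromosome 1 (92100555 to 92113326 of mm9), is the scavenging receptor for Cxcl12. It had 82.4, 65.1 and 51.2 FPKM at P5 and 209, 286 and 206 at P30. Its lowest P30 isolation was 2.50 times its highest P5 isolation. Its log2 fold change was 1.81 (SE 0.20) and stayed past the limits in all 14 alternatives, between 1.64 and 1.98. Cxcl12 and its scavenger thus both passed the limits in the same direction, while Cxcr4, the receptor through which Cxcl12 signals, had 180, 170.1 and 95.2 FPKM at P5 and 47.7, 52.0 and 88.6 at P30. Every P30 isolation of Cxcr4 was below every P5 isolation, but its log2 fold change of -1.23 (SE 0.31) did not pass the limits (limma adjusted p = 0.0183). It passed them without P30 replicate 3 (-1.50, limma adjusted p = 0.00848).

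The receptors of the other ligands include several genes of leukocytes. Cx3cr1, the receptor for Cx3cl1 and a gene of microglia and macrophages, fell from 102, 104 and 97.1 FPKM to 30.2, 6.39 and 16.2 (limma coefficient -2.69, SE 0.46, adjusted p = 0.00426). Ccr1, which binds several CC chemokines, Ccl7 among them, fell from 43.2, 27.8 and 31.6 to 9.59, 3.56 and 1.92 (limma coefficient -2.73, SE 0.47, adjusted p = 0.00423). Neither passed the limits when any 1 of the P5 isolations was left out, nor did Ccr1 without P30 replicate 2 or Cx3cr1 without P30 replicate 3. Ccr2, the receptor for Ccl2, had at most 3.71 FPKM, in P30 replicate 3. Ccr3, the receptor for Ccl11, was listed at 0 except for 0.59 in P5 replicate 2, and Cxcr6, the receptor for Cxcl16, was listed at 0 except for 0.82 in the same isolation. Cxcr2, the receptor for Cxcl1, was listed at 0 in all 6. Cxcr3, the receptor for Cxcl9 and Cxcl10, had 1.33, 1.88 and 2.19 FPKM at P5 and was listed at 0 at P30. Of the 18 signalling receptors, 4 reached the minimum FPKM, and 2 of these 4 were higher at P5 and 0 higher at P30, beside 5.82% and 5.89% of all genes tested. Their median log2 fold change was -1.96, against -0.10 over all genes tested. Of these receptors, Ccr10 reached the minimum only through its P5 mean (5.16 FPKM, against 3.70 at P30), so the filter favoured its negative fold change.

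Of the 29 other ligands in the tables, 11 reached the minimum FPKM, 9 were listed at 0 in every isolation, and the median log2 fold change of the 11 was -0.25. Ccl8 and Ccl27a reached the minimum only through P30, and Ccl24 and Ppbp only through P5. Ccl27a had 0, 6.23 and 8.47 FPKM at P5 and 87.0, 28.8 and 8.97 at P30. The ages did not overlap, but it did not pass the limits (limma coefficient 2.86, SE 1.03, adjusted p = 0.0618). Pf4 was the gene that passed the limits. It fell from 407, 456 and 467 FPKM at P5 to 138, 15.2 and 51.7 at P30 (limma coefficient -3.17, SE 0.67, adjusted p = 0.00945), and it did not pass without any 1 of the P5 isolations or without P30 replicate 3, where its adjusted p was between 0.0223 and 0.0424. Cxcl2, the close relative and neighbour of Cxcl1, had 205, 158 and 219 FPKM at P5 and 249, 81.4 and 58.9 at P30, with overlap (limma coefficient -0.85, SE 0.48, adjusted p = 0.196). Without P30 replicate 1 it was lower at P30 and passed the limits (-1.46, limma adjusted p = 0.00322). Ccl3 had 84.4, 65.3 and 94.4 at P5 and 255, 46.9 and 25.3 at P30 (limma coefficient -0.25, SE 0.74, adjusted p = 0.809). For Pf4, Cxcl2 and Ccl3 the highest P30 isolation was replicate 1.

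Other atypical receptors were measured beside Cxcr7. Ccrl2, which presents chemerin at the surface of ECs, rose from 47.6, 38.5 and 29.4 FPKM to 205, 169 and 270 (limma coefficient 2.45, SE 0.22, adjusted p = 0.000374). Darc (Ackr1), which binds many inflammatory chemokines on venules, had 4.19, 2.19 and 2.98 at P5 and 9.88, 10.2 and 7.28 at P30. It reached the minimum FPKM only through its P30 mean (9.13, against 3.12 at P5), so the filter favoured its positive fold change. The ages did not overlap, and the difference missed the limits (limma coefficient 1.31, SE 0.35, adjusted p = 0.0228). Ccbp2 (Ackr2), a scavenger of inflammatory CC chemokines, had 55.1, 56.4 and 57.4 at P5 and 71.2, 37.4 and 44.8 at P30, with overlap (limma coefficient -0.19, SE 0.23, adjusted p = 0.533). Of the 3 tested, 1 was higher at P30 and 0 at P5, beside 5.89% and 5.82% of all genes tested.

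**Figure D3:**
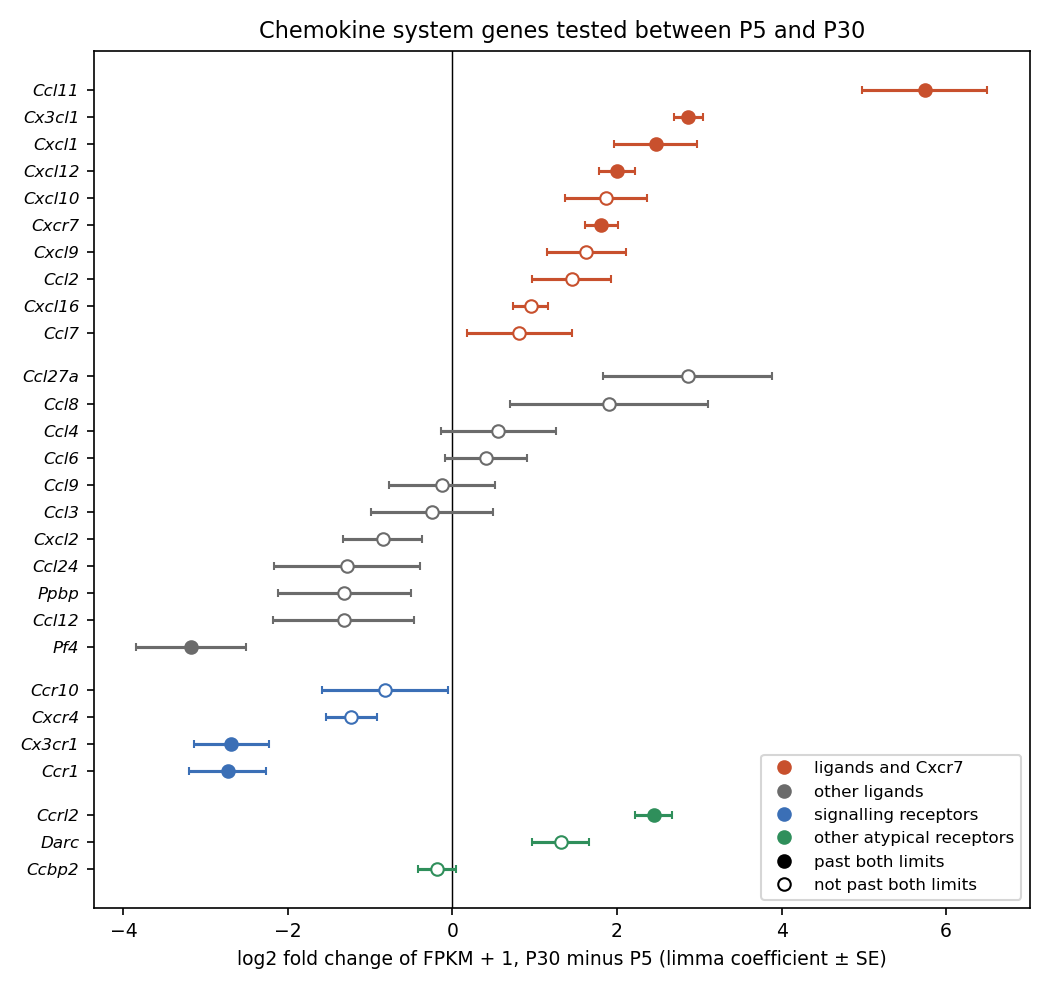
Limma log2 fold changes of FPKM + 1, P30 minus P5, with SE bars, for the 10 genes (red), the other ligands (grey), the signalling receptors (blue) and the other atypical receptors (green) that reached the minimum FPKM. Filled points passed both limits, and the 10 genes lie right of 0 while the 4 signalling receptors lie left of it. Ccr10, Ccl24 and Ppbp reached the minimum FPKM only through their P5 means. Ccl8, Ccl11, Ccl27a, Cxcl9 and Darc reached it only through their P30 means.

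Of 15 genes that cut chemokines or make the heparan sulfate that holds them, 14 were tested, 1 was higher at P30, 0 were higher at P5, and the median log2 fold change was -0.20. This count is near the background of 5.89% called higher at P30 over all genes tested, whose median was -0.10. Sdc4, a heparan sulfate proteoglycan, rose from 39.4, 28.3 and 27.3 FPKM to 91.5, 116 and 58.9 (limma coefficient 1.42, SE 0.26, adjusted p = 0.00580). It did not pass without P30 replicate 1 or 2 or any P5 isolation, where the log2 fold change was between 1.21 and 1.59. Adam10, a protease that releases Cx3cl1 and Cxcl16, had a mean of 595 ± 17.9 at P5 and 339 ± 30.6 at P30 (limma coefficient -0.82, SE 0.10, adjusted p = 0.00103), under the 2-fold limit. Mmp14, a membrane protease, had 408 ± 11.2 and 200 ± 84.5 (limma coefficient -1.11, SE 0.26, adjusted p = 0.0149), and it passed the limits without P30 replicate 2 (-1.43, limma adjusted p = 0.00155). Sdc3, another heparan sulfate proteoglycan, had 189 ± 27.2 and 305 ± 24.7 (limma coefficient 0.69, SE 0.13, adjusted p = 0.00628), also under the 2-fold limit.

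Of 31 genes for the cytokine receptors and signalling proteins that induce chemokines, 6 were called higher at P30 and 0 higher at P5. Over all genes tested these calls were 5.89% and 5.82%. The median log2 fold change of the 31 was 0.45, against -0.10 over all genes tested. Irf1, an interferon-induced transcription factor, rose from 172, 117 and 142 FPKM to 1395, 1731 and 512 (limma coefficient 2.91, SE 0.42, adjusted p = 0.00220). Its P30 order, with replicate 3 lowest and replicate 2 highest, was also that of Cxcl9, Cxcl10, Ccl2 and Cxcr7. Nfkbia, the feedback inhibitor of NF-κB, rose from 684, 648 and 626 to 1736, 1944 and 1817 (limma coefficient 1.49, SE 0.09, adjusted p = 0.000127). Tnfaip3, another NF-κB-induced inhibitor, rose as well (limma coefficient 1.27, SE 0.19, adjusted p = 0.00275). The receptor genes Osmr (1.44, SE 0.14, adjusted p = 0.000408), Il6st (1.34, SE 0.16, adjusted p = 0.00107) and Il1r1 (1.34, SE 0.26, adjusted p = 0.00726) were the other ones past the limits in limma. Tnfrsf1a, the main receptor for TNF, had 575 ± 31.1 at P5 and 786 ± 36.6 at P30 (limma coefficient 0.45, SE 0.09, adjusted p = 0.00828), under the 2-fold limit. Without P5 replicate 2 or without P5 replicate 3 the count was 3. Irf1 and Tnfaip3 lost the limits in both cases (Irf1 2.77 and 2.91, Tnfaip3 1.31 and 1.19), and Il1r1 did so too (1.21 and 1.38). Of the 14 alternatives, Il1r1 stayed past the limits in 6, Tnfaip3 in 11 and Irf1 in 12. Of the NF-κB subunits, Rela had 145 ± 17.6 FPKM at P5 and 242 ± 27.8 at P30 (limma coefficient 0.73, SE 0.13, adjusted p = 0.00532), under the 2-fold limit, and Nfkb1 had 197 ± 2.49 and 181 ± 17.9 (limma coefficient -0.13, SE 0.10, adjusted p = 0.358). These subunits were picked after their values were seen.

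The 10 genes fell into different patterns over the P30 isolations. Replicate 2 was highest for 7 of them (Ccl11, Ccl2, Cxcl1, Cxcl12, Cxcl10, Cxcl9 and Cxcr7), replicate 1 for Ccl7 and Cx3cl1, and replicate 3 for Cxcl16. Of all genes tested, 46.1% were highest in P30 replicate 2. The ratio of the highest to the lowest P30 isolation was 8.24 for Ccl11, 7.45 for Ccl7, 4.79 for Cxcl10, 4.11 for Cxcl1, 3.999 for Ccl2 and 3.25 for Cxcl9. It was 1.68 for Cxcl12, 1.52 for Cxcl16, 1.39 for Cxcr7 and 1.203 for Cx3cl1, and the median over the 12098 tested genes above 0 in all P30 isolations was 1.41. Cx3cl1 and Cxcr7 lay under that median and the other 8 genes above it.

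**Figure D4:**
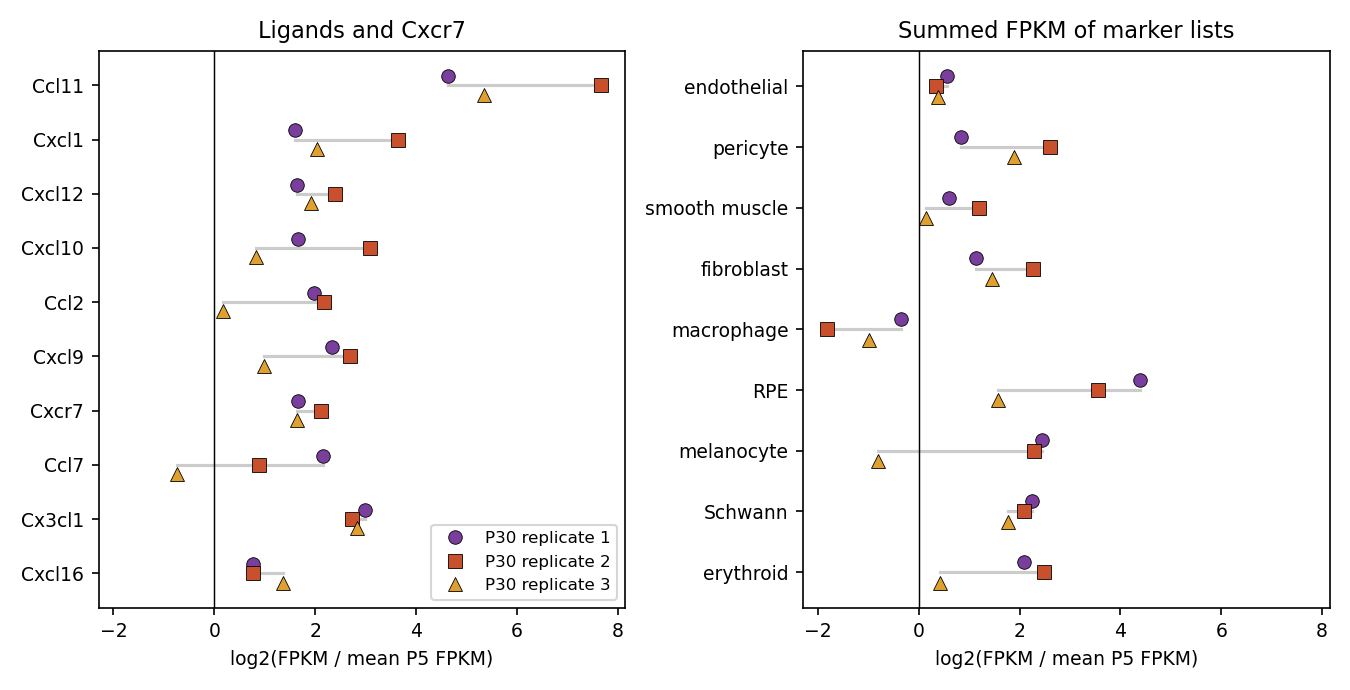
Log2 of the FPKM in each P30 isolation over the mean P5 FPKM, for the 10 genes (left) and for the summed FPKM of marker lists (right), with a symbol and colour for each P30 replicate and a grey line over their range. P30 replicate 2 is highest for 7 of the 10 genes, and it was highest for 46.1% of all genes tested. Among the lists it is highest for pericyte, smooth muscle, fibroblast and erythroid markers and lowest for endothelial and macrophage markers.

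Markers of other cells moved with age and between the P30 isolations, and their part in the chemokine values was not tested. The endothelial list, led by Emcn and Egfl7, had summed FPKM from 18614 to 20011 at P5 and from 24430 to 28635 at P30, and 0 of its 10 genes passed the limits. The pericyte list, led by Rgs5 and Pdgfrb, summed to 1748, 919 and 476 at P5 and to 1880, 6375 and 3894 in P30 replicates 1, 2 and 3. All 7 of its genes were highest in P30 replicate 2. Its sum was lowest in P30 replicate 1, and Ccl11, Cxcl1 and Cxcl12 had the same P30 order as this sum. At P5 the pericyte sum was highest in replicate 1 and lowest in replicate 3, as were Ccl11 and Cxcr7. The sums of the RPE, melanocyte and Schwann cell lists, described below, had this P5 order too. The fibroblast list, led by Dcn and Col1a2, summed to 672, 433 and 917 at P5 and to 1480, 3258 and 1848 at P30 in the same order, with 1 of 8 genes higher at P30, and the smooth muscle list, led by Smtn and Acta2, to 536 to 563 at P5 and 613 to 1254 at P30, with 2 of 5 tested genes higher at P30. Without P30 replicate 2, where the pericyte and fibroblast sums were highest, the log2 fold change was 4.84 for Ccl11, 1.86 for Cxcl1 and 1.79 for Cxcl12, all past the limits. The pericyte and fibroblast sums of P30 replicates 1 and 3 were also above those of every P5 isolation, so this fit does not remove the difference in these markers between ages.

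The macrophage list, led by Lyz2 and Cd68, summed to 1446, 1461 and 1179 FPKM at P5 and to 1066, 387 and 685 at P30, with 5 of 11 genes higher at P5 and 0 higher at P30. In bulk RNA, fewer cells of a type and less RNA per cell cannot be told apart. Of these 11 genes 10 were highest of the P30 isolations in replicate 1, as were Ccl7, Cx3cl1, Pf4, Ccl3 and Cxcl2, whereas Ccl11, Cxcl1 and Cxcl12 were lowest there. Of all genes tested, 29.97% were highest in P30 replicate 1. So were 7 of the 10 endothelial genes, and the endothelial and macrophage sums both had the P30 order of Cx3cl1. The RPE list, led by Ttr and Rgr, was between 169 and 222 at P5 and 3920, 2202 and 557 at P30, with 5 of 7 tested genes higher at P30. The melanocyte list, led by Dct and Pmel, ranged from 102 to 468 at P5 and 132 to 1270 at P30 (0 of 6 past the limits), the Schwann cell list, led by Pmp22 and Mbp, from 191 to 318 and 877 to 1212 (2 of 6 higher at P30), and the erythroid list, led by Hba-a1 and Hbb-b1, from 175 to 491 and 442 to 1829 (0 of 5). Of the 10 chemokine genes, only Ccl7 had the P30 order of the RPE list (replicate 1, then 2, then 3). Any part of RPE RNA in the values of the 10 genes was not tested. The lymphocyte list, led by Cd79a and Ms4a1, summed to at most 5.62 FPKM, and the T cell genes Cd3d, Cd3e, Cd3g and Cd8a were listed at 0 in all 6 isolations. The eosinophil genes Prg2 and Epx and the mast cell gene Fcer1a were also listed at 0 throughout, and the mast cell and eosinophil list, led by Kit and Cma1, summed to 27.8 to 44.6 at P5 and 8.11 to 48.7 at P30.

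The genes most like Ccl11 over the 6 isolations, by the root mean square difference of log2(FPKM + 1) after centring each gene on its mean, were Vtn (0.31), Spp1 (0.41) and Ch25h (0.74). Vtn, vitronectin, had 3.55, 2.70 and 1.09 FPKM at P5 and 86.7, 425 and 162 at P30, with P30 replicate 2 highest as for Ccl11. Spp1, osteopontin, had 21.7, 9.88 and 6.48 at P5 and 452, 2412 and 818 at P30. The genes most like Cxcr7 were Tmtc1 (0.059), Plscr2 (0.080) and Pitpnm1 (0.11). Tmtc1 had 48.3, 36.8 and 27.9 FPKM at P5 and 128, 172 and 127 at P30. These likenesses rest on 6 isolations in 2 age groups and were picked from 12481 genes, so they describe shared profiles only. No gene of the set had a negative log2 fold change, so none was matched for a fall.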

How the data were processed

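Choroid ECs were sorted for VE-Cadherin and RNA was extracted directly after the sort, with TruSeq RNA libraries run on a HiSeq2000. Reads were aligned by the authors to mm9 in TopHat, and FPKM per gene symbol, computed in CuffLinks with correction for GC and scaling to the upper quartile, were deposited. Versions of both and the gene annotation are not given in the sources used here, and the submitters' processing notes also name CASAVA 1.8.2. Samples were grouped by age from their titles.

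The deposited FPKM were fitted as log2(FPKM + 1) with limma 3.58.1 in R 4.3.3 (lmFit, eBayes with trend, no block) over genes with a mean of at least 5 FPKM in at least 1 age. Limits were an adjusted p under 0.01 and 2-fold. Tables used Python 3.11.15 and pandas 2.3.3. The fit was tested on simulated data. The genes described, the lists and the tests were chosen with earlier results of these data known.

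Named beside the 10 genes were, from each list, genes past the limits and the 3 of highest mean FPKM, the 3 genes most like Ccl11 (the largest rise) and Cxcr7, and the 2 cell type markers of highest P30 mean per list. Other genes, such as neighbours, receptors of a listed ligand and markers at 0, were added after their values were seen. Ackr3 was matched as Cxcr7. Positions are those of GENCODE M1 on mm9. No read counts were used. Ratios of low FPKM between isolations did not pile up at single values (at most 3.55% of genes in a log2 bin of 0.05), so depth is unknown and no counting interval is given. No 2 isolations held identical values, and p-values measure the spread between isolations, each a pool of 7 animals. Marker genes of 1 further cell type and 1 further promoter motif are not reported here.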

Additional observations from a re-analysis of the deposited data

How the results depend on the processing

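The direction of all 10 genes was kept in each alternative: other pseudocounts, other minimum FPKM values (Cxcl9 is not tested at a minimum of 10), no trend, quantile normalization, rescaling to 1 sum, a replicate block and each isolation left out. Cxcl12, Cx3cl1 and Cxcr7 passed the limits in all 14, Ccl11 in 13 and Cxcl1 in 7. With isolations left out, the number of the 10 higher at P30 was between 3 and 7, against 5. Rescaling moved the median log2 fold change of all genes from -0.10 to -0.27 and the calls over all genes from 735 higher at P30 and 726 higher at P5 to 632 and 1070, while the lowest of the 10 genes was at 0.64. With isolations left out, the calls over all genes were between 396 and 849 higher at P30 and between 291 and 754 higher at P5. The other ligands higher at P5 numbered 1, and were 0 with a pseudocount of 0.1, without trend and with the replicate block, and between 0 and 3 with isolations left out. Receptors higher at P5 were 2, 1 without trend, 3 with no filter on low values, and between 0 and 2 with isolations left out. Atypical receptors higher at P30 were 1, and 2 without trend. Processing genes higher at P30 were 1, and 0 without trend, and between 0 and 1 with isolations left out. Those higher at P5 were 0, with 1 under quantile normalization, 2 under rescaling and between 0 and 2 with isolations left out. Inducing genes higher at P30 were 6, and between 3 and 6. Ccl3 turned positive without P30 replicate 2 (0.01) and 3 (0.44), over a range from -1.20 to 0.44 with isolations left out, and Ccbp2 without P30 replicate 2 (0.0055), over -0.45 to 0.0055. Fits without an isolation have fewer samples, and further causes were not tested. With the replicate block, 585 genes were called higher at P30 and 524 at P5, with 4 of the 10 genes among the former, Cxcl1 dropping out (log2 fold change 2.47, SE 0.52). The block takes its pairing from the labels' replicate numbers. Same-numbered isolations had deviations correlated at -0.062, -0.091 and -0.031, so these values show no pairing by number. The sources used here do not say whether the isolations were paired.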
